A study of Mus musculus with 10 samples.

Results

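The genes described here are 34 genes of lymph nodes and lymphocytes, listed by gene symbol with earlier results of these data known. They comprise 9 genes of the venules, stroma and follicles of lymph nodes (Glycam1, Madcam1, Chst4, Fut7, Ccl19, Cxcl13, Cr2, Ltb and Cxcr5), 7 B cell genes (Cd79a, Cd79b, Ms4a1, Cd22, Blk, Pax5 and Fcer2a), 15 T cell genes (Cd3d, Cd3e, Cd3g, Cd4, Cd8a, Cd8b1, Lck, Zap70, Cd2, Cd5, Cd28, Il7r, Ccr7, Lef1 and Tcf7) and 3 genes shared by leukocytes (Coro1a, Ptprcap and Rac2). A probe set annotated to exactly 1 gene symbol represented 31 of the 34 genes, and these genes held 49 of the 45037 probe sets that were kept. The signals of Ccl19, Lck and Tcf7 were not analysed here. Where a gene had more than 1 probe set, that of the highest mean signal stands for it unless another is named.

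The study asked how long-lasting skin inflammation affects the aorta, and compared abdominal aortas from 4 WT and 6 KCASP1Tg mice on GeneChip Mouse Genome 430 2.0 arrays. KCASP1Tg mice overexpress human caspase-1, a protease that activates interleukin-1 family cytokines, in keratinocytes under the keratin 14 promoter, and they develop dermatitis. The WT mice were C57BL/6 littermates. All mice were female and 4 months old (16 weeks at RNA extraction), no treatment is named, and the tissue label is dechorionated abdominal aorta. Each array is labelled as a separate mouse, while the methods give fewer mice than the 10 arrays, and all 10 arrays were used.

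Lymphocytes enter a lymph node from the blood through high endothelial venules, whose cells display sulfated and fucosylated mucins that bind L-selectin. Stromal cells of the follicles release the chemokine Cxcl13, which attracts B cells through the receptor Cxcr5, and lymphotoxin made by lymphocytes maintains these stromal cells. Similar clusters of B cells, T cells and venules can form around arteries in the adventitia and the fat outside it, and lymph nodes lie beside the abdominal aorta.

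The values are MAS5.0 signals, a background-corrected probe set intensity that the authors scaled to a trimmed mean of 500 on each array, and 54.9% to 58.3% of the probe sets of an array reached a signal of 100, which is used below as the lower limit of a readily measured level. The markers of smooth muscle, the main cell of the aortic wall, had a mean log2 signal of 12.12 to 12.39 on the WT arrays and of 11.88 to 12.39 on 5 of the KCASP1Tg arrays. The array KCASP1Tg 4 stood apart at 10.84, with Myh11 at 2453 where the other KCASP1Tg arrays had 8482 to 14068. KCASP1Tg 4 also had the highest signal for 29 of the 31 measured lymph node and lymphocyte genes, against 20.3% of all probe sets, so values are also given without it. Whether the KCASP1Tg 4 sample took in lymph node tissue was not tested. Of the liver markers, Alb reached signals of 43054 on WT 1 and 25226 on WT 3 against 72.9 to 3695 on the other arrays, and of the heart muscle markers, Myh6 reached signals of 11232 on WT 4, 5796 on KCASP1Tg 1 and 3101 on KCASP1Tg 2 against 0.859 to 161 on the others. The number of arrays limits the precision.

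The promoters of Cxcl13, Madcam1, Ltb and Glycam1 are shown first, because Cxcl13 and Madcam1 were the genes whose signals did not overlap between the genotypes, Ltb encodes the lymphotoxin subunit that maintains node stroma, and Glycam1 had the largest log2 fold change of the 31 genes. Each is a RefSeq window of 300 bases, 250 before the start site (position 0) and 50 from it, on build GRCm38.p6. Capitals mark the motif GGGNNTTTC, a part of the sites bound by NF-kappa-B factors, or CCCNNGGG, the core of the sites bound by EBF factors of B cells, on either strand.
Cxcl13 (chr5:95956689-95956988, plus strand): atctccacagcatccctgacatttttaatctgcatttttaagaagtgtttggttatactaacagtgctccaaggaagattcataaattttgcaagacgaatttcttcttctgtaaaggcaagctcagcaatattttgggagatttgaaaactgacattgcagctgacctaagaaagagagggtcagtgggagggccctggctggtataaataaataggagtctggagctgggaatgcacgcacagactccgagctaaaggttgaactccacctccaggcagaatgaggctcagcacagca
Madcam1 (chr10:79664309-79664608, plus strand): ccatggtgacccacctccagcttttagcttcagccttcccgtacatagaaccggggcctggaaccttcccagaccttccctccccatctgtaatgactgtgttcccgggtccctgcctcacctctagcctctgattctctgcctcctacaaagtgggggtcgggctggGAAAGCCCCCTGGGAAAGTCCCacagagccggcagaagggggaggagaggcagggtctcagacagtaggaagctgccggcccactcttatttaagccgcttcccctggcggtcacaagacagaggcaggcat
Ltb (chr17:35194257-35194556, plus strand): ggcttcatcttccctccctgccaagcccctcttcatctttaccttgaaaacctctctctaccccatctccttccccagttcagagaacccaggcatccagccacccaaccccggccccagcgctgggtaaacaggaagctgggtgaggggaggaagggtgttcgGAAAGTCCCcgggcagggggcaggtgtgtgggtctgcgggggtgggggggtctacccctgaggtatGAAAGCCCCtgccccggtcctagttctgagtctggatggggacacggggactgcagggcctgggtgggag
Glycam1 (chr15:103565032-103565331, minus strand): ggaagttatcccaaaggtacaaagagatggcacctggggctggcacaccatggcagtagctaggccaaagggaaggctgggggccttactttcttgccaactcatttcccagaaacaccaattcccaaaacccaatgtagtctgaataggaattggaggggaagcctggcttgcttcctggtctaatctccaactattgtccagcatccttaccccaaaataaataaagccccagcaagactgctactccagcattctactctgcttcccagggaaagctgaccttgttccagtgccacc

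In these windows GGGNNTTTC began at positions -82 and -69 in Madcam1 and at positions -86 and -20 in Ltb. The Madcam1 match to CCCNNGGG began at position -76 and overlapped both of its other matches. No match was found in the windows of Cxcl13 and Glycam1. Windows were given for 23 of the 34 genes, 34 windows in all. GGGNNTTTC stood in 2 of these 34 windows (5.88%) and in 4.36% of the 32851 windows of the whole table. CCCNNGGG stood in 4 of the 34 windows (11.8%, Cd22, Coro1a, Madcam1 and Zap70), against 13.7% of all windows. TGTGGT, the core of the sites bound by RUNX factors of lymphocytes, stood in 6 (17.6%, Chst4, Fcer2a, Fut7, Il7r, Lck and Zap70), against 16.8%. The octamer ATGCAAAT of immunoglobulin promoters stood in 0 of them, against 1.74%.

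Across the 31 measured genes, 30 had a positive log2 fold change of KCASP1Tg over WT, and the median was 1.18, beside a median of 0.0 over all probe sets. No gene passed the test. The 19 genes that reached a signal of 100 on 4 or more arrays were tested with limma, and at an adjusted p under 0.05 the count was 0 higher and 0 lower, where 0.0686% of the 26242 probe sets tested were higher and 0% lower. Before adjustment, 3 genes were higher (Cxcl13, Cd79a and Rac2) and 0 lower at a p under 0.05, which are 4 of the 21 tested probe sets of these genes, beside 4.52% of all probe sets tested, and by the exact Mann-Whitney test with adjustment 0 genes passed. None of the 19 tested genes had all its WT signals under 100. Among the WT arrays, however, Glycam1, Cd79a, Cd3d, Cd2 and Il7r reached 100 on WT 1 alone and Ltb on WT 2 alone. These genes would have passed the signal filter on the KCASP1Tg arrays alone. More cells of a type and more RNA per cell cannot be told apart in these bulk samples.

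Without KCASP1Tg 4 the median log2 fold change of the 31 genes was 0.55, beside -0.01 over all probe sets, and 25 genes were positive. A log2 fold change over 1 was seen in 19 genes with all arrays and in 4 without KCASP1Tg 4 (Glycam1, Cxcl13, Madcam1 and Cd79a). Again 0 genes passed, where 0.236% of the 25886 probe sets tested without KCASP1Tg 4 were higher.

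**Figure D1:**
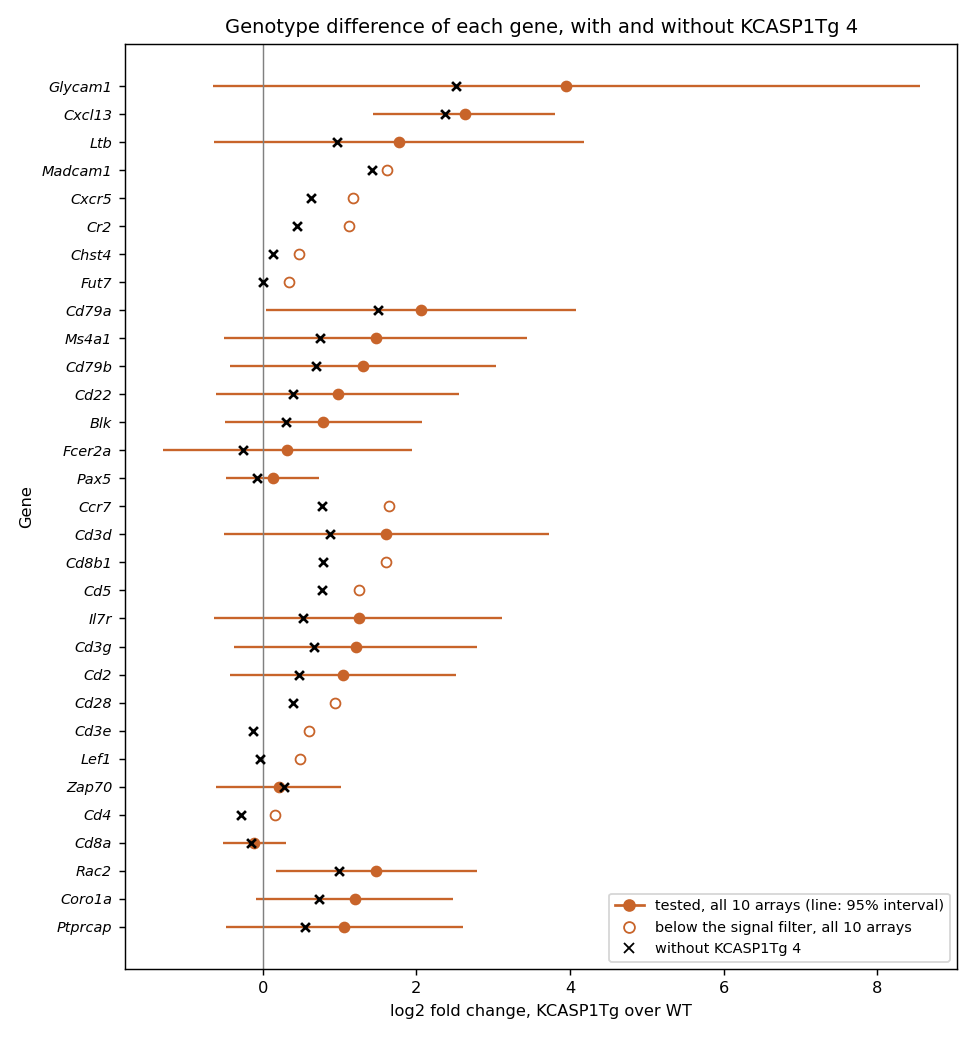
Log2 fold change of KCASP1Tg over WT for each of the 31 measured genes, in 4 blocks by gene group (node, B cell, T cell, shared leukocyte). Filled circles with lines are the limma estimate and its 95% interval for the 19 tested genes, open circles are genes below the signal filter, and crosses are the values without KCASP1Tg 4. Glycam1 is farthest to the right at 3.95 with an interval from -0.65 to 8.55, Cxcl13 has an interval from 1.44 to 3.81, and most crosses lie to the left of their circles.

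Cxcl13, the chemokine that draws B cells into follicles, had the smallest adjusted p of the 19 tested genes. Its signals were 1205, 1170, 369 and 246 on WT 1 to WT 4. On the KCASP1Tg arrays the lowest was 2152, the median 3700 and the highest 9023. Every KCASP1Tg array lay above every WT array, KCASP1Tg 4 was the highest of them, and WT 3 and WT 4 were the lowest of all. The log2 fold change was 2.63 (standard error, SE, 0.54, 95% interval 1.44 to 3.81, adjusted p = 0.135 from limma). The exact Mann-Whitney p was 0.00952, the smallest that 4 against 6 arrays can give, and was 0.325 after adjustment. Without KCASP1Tg 4 the log2 fold change was 2.37 (adjusted p = 0.124 from limma), so the direction and size did not rest on that array. A second Cxcl13 probe set gave 334 to 1227 on the WT arrays and 1804 to 7480 on the KCASP1Tg arrays, a log2 fold change of 2.33 (adjusted p = 0.125 from limma), or 2.09 without KCASP1Tg 4. The call depended on how arrays were weighted. With array weights in limma the log2 fold change was 2.32 and passed (adjusted p = 0.0368), and over all settings tried the adjusted p ran from 0.0368 to 0.798. The share of all probe sets that passed with array weights is not given here.

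Madcam1, the mucosal addressin that binds the lymphocyte integrin alpha-4 beta-7, was the other gene without overlap. Its signals were 27.1, 40.6, 14.6 and 31.3 on WT 1 to WT 4. On the KCASP1Tg arrays they ran from 58.4 over a median of 74.7 to 162. All WT arrays were below all KCASP1Tg arrays, but only KCASP1Tg 4 exceeded a signal of 100, so the gene was not tested with limma. The log2 fold change was 1.62, or 1.43 without KCASP1Tg 4 and 0.78 when 50 was added to each signal before the log, and the exact Mann-Whitney p before adjustment was 0.00952. With no signal filter the adjusted p of Madcam1 was 0.264 from limma. Of the 49 probe sets of the lymph node and lymphocyte genes, 3 had KCASP1Tg signals wholly above the WT signals (Cxcl13 with both probe sets, and Madcam1), as did 1.45% of all 45037 probe sets.

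Glycam1, the mucin of lymph node venules that binds L-selectin, varied widely from array to array. Its signals were 127, 3.05, 4.67 and 7.2 on WT 1 to WT 4. On the KCASP1Tg arrays the lowest was 4.82, the median 125 and the highest 22908. KCASP1Tg 4 was far above the rest, WT 1 was as high as the middle of the KCASP1Tg group, and KCASP1Tg 2 was as low as the other WT arrays. The KCASP1Tg 4 signal was 36.8 times the next highest, that of KCASP1Tg 3. The KCASP1Tg mean was higher by 3.95 on the log2 scale (SE 2.08, adjusted p = 0.699 from limma), by 2.52 without KCASP1Tg 4 and by 2.24 when 50 was added to each signal. The groups overlapped.

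The enzymes that complete the L-selectin ligand on such mucins are Chst4, which adds sulfate, and Fut7, which adds fucose. Chst4 had signals of 36.5, 64.7, 67.0 and 112 on the WT arrays, and on the KCASP1Tg arrays 29.3 at the lowest, 90.8 at the median and 296 on KCASP1Tg 4. Fut7 had signals of 12.4, 27.0, 45.9 and 28.4 on the WT arrays, and 11.1, 33.8 and 105 as the lowest, median and highest on the KCASP1Tg arrays. Apart from KCASP1Tg 4 neither gene separated the genotypes. Their log2 fold changes were 0.47 and 0.35, and 0.13 and 0.01 without KCASP1Tg 4, and neither reached a signal of 100 on enough arrays to be tested.

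Ltb, the membrane-bound lymphotoxin subunit, had signals of 94.2, 113, 47.7 and 69.5 on WT 1 to WT 4. On the KCASP1Tg arrays the lowest was 49.1, the median 285 and the highest 4304. KCASP1Tg 1, KCASP1Tg 3, KCASP1Tg 4 and KCASP1Tg 6 lay above all WT arrays, whereas KCASP1Tg 2 and KCASP1Tg 5 lay among them. Ltb had a log2 fold change of 1.78 (SE 1.08, adjusted p = 0.758 from limma), and of 0.97 without KCASP1Tg 4.

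The remaining node genes are receptors. Cr2, the complement receptor of B cells and follicular dendritic cells, had signals of 10.6 to 73.7 on the WT arrays and of 5.32 to 121 on 5 KCASP1Tg arrays, with 778 on KCASP1Tg 4. Cxcr5, the receptor for Cxcl13, had signals of 23.6 to 72.8 on the WT arrays and of 43.1 to 135 on 5 KCASP1Tg arrays, with 649 on KCASP1Tg 4. Both were thus above 100 on few arrays, both overlapped between the genotypes, and neither was tested. Their log2 fold changes of 1.12 and 1.18 were 0.45 and 0.63 without KCASP1Tg 4. Over the 8 measured node genes the median log2 fold change was 1.40, and 0.80 without KCASP1Tg 4, and all 8 had their highest signal on KCASP1Tg 4.

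**Figure D2:**
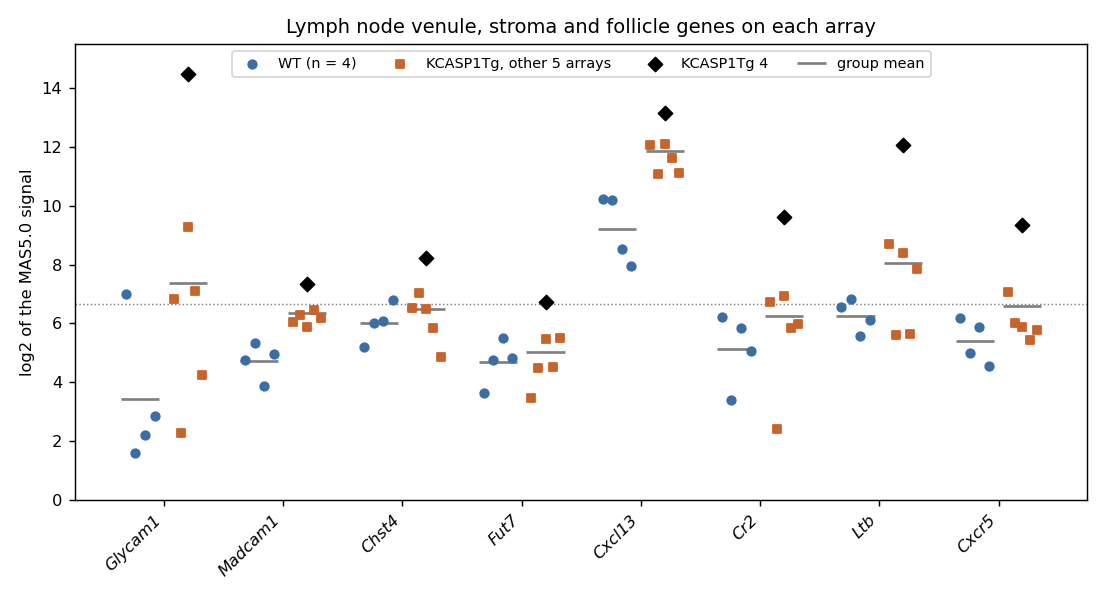
Log2 of the MAS5.0 signal of the 8 measured node genes on each array: circles are WT arrays, squares 5 KCASP1Tg arrays, diamonds KCASP1Tg 4, grey lines the group means and the dotted line a signal of 100. Cxcl13 and Madcam1 have every KCASP1Tg point above every WT point, and the Glycam1 diamond, a signal of 22908, lies far above all other points of that gene.

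The B cell genes had a median log2 fold change of 0.98, or 0.40 without KCASP1Tg 4, and all 7 were tested with 0 calls. Cd79a and Cd79b encode the signalling chains of the B cell receptor. Cd79a had signals of 109, 46.2, 35.6 and 5.75 on WT 1 to WT 4, and 51.2, 115 and 925 as the lowest, median and highest on the KCASP1Tg arrays. WT 4 was the lowest and KCASP1Tg 4 the highest by a wide margin, and the groups overlapped through WT 1. Cd79a thus had a log2 fold change of 2.06 (95% interval 0.04 to 4.08, SE 0.91, adjusted p = 0.617 from limma), of 1.5 without KCASP1Tg 4 and of 1.09 when 50 was added to each signal.

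Cd79b had signals of 254, 103, 80.4 and 121 on WT 1 to WT 4, and 133, 238 and 2732 as the lowest, median and highest on the KCASP1Tg arrays. Ms4a1, the B cell surface protein CD20, had signals of 334, 131, 141 and 151 on the WT arrays, and 142, 324 and 5721 likewise on the KCASP1Tg arrays. For both genes WT 1 stood above several KCASP1Tg arrays and KCASP1Tg 4 was over 7 times the next array. The log2 fold changes were 1.31 for Cd79b (SE 0.78, adjusted p = 0.747 from limma) and 1.47 for Ms4a1 (SE 0.89, adjusted p = 0.754 from limma), and 0.69 and 0.75 without KCASP1Tg 4.

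Pax5, the transcription factor of B cell identity, and Fcer2a, the low-affinity IgE receptor of follicular B cells, had the lowest fold changes of the B cell genes. Pax5 had signals of 110, 110, 105 and 108 on WT 1 to WT 4, and 82.2, 107 and 239 as the lowest, median and highest on the KCASP1Tg arrays. Fcer2a had signals of 101, 80.1, 69.2 and 79.0 on the WT arrays, and 29.8, 97.2 and 722 on the KCASP1Tg arrays. The WT arrays were close together for both genes and lay inside the range of the KCASP1Tg arrays. The log2 fold changes were 0.14 for Pax5 (adjusted p = 0.968 from limma) and 0.32 for Fcer2a (adjusted p = 0.973 from limma), and both were negative without KCASP1Tg 4, at -0.07 and -0.25. The second probe sets of Pax5 and Fcer2a, over 100 on KCASP1Tg 4 only, gave 0.42 and 0.82, or 0.05 and 0.01 without KCASP1Tg 4. Cd22, an inhibitory coreceptor, and Blk, a Src family kinase of B cells, lay between with log2 fold changes of 0.98 and 0.79 (adjusted p = 0.816 from limma for each), and 0.40 and 0.31 without KCASP1Tg 4. Their signals on KCASP1Tg 4 were 3120 and 815, against at most 542 and 178 on any other array. A second Cd22 probe set, over 100 on KCASP1Tg 4 only, gave 0.53, or -0.46 without KCASP1Tg 4.

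The T cell genes had a median log2 fold change of 1.05, or 0.48 without KCASP1Tg 4, and 6 of the 13 measured genes were tested with 0 calls. Ccr7, the chemokine receptor that brings T cells and dendritic cells into lymph nodes, had signals of 13.7, 22, 7.07 and 8.03 on WT 1 to WT 4. On the KCASP1Tg arrays the lowest was 5.64, the median 26.3 and the highest 784. All arrays but KCASP1Tg 4 were under 100, and the KCASP1Tg 4 signal was 25.5 times the next highest. The log2 fold change of 1.65 was 0.77 without KCASP1Tg 4, and the gene was not tested.

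Cd3d, Cd3e and Cd3g encode the invariant chains of the T cell receptor complex and are neighbours in the genome. Cd3d had signals of 139, 63.1, 64.3 and 25.6 on WT 1 to WT 4, and 58.2, 149 and 2437 as the lowest, median and highest on the KCASP1Tg arrays. KCASP1Tg 4 was 10 times the next array, and KCASP1Tg 2 and KCASP1Tg 5 lay among the WT arrays. The log2 fold change of Cd3d was 1.61 (SE 0.95, adjusted p = 0.747 from limma), and 0.88 without KCASP1Tg 4. That of Cd3g was 1.21 (adjusted p = 0.743 from limma), and 0.67 without KCASP1Tg 4. Cd3e had a signal of 507 on KCASP1Tg 4 and at most 45.1 elsewhere, and its log2 fold change went from 0.61 to -0.13 without KCASP1Tg 4.

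Cd8a and Cd8b1 encode the CD8 coreceptor chains of cytotoxic T cells, and Cd4 the coreceptor of helper T cells. Cd8b1 had signals of 33.6, 17.7, 25.6 and 12.4 on WT 1 to WT 4, and 25.2, 32.4 and 1064 as the lowest, median and highest on the KCASP1Tg arrays. The log2 difference of 1.60 was 0.79 without KCASP1Tg 4, the only array over 100. Cd4 had signals of 17.3, 18.1, 14.0 and 9.84 on the WT arrays, and 7.81, 12.6 and 72.6 on the KCASP1Tg arrays. No array reached 100 for Cd4, and its log2 fold change went from 0.16 to -0.28 without KCASP1Tg 4. A second Cd4 probe set, with signals of 1.78 to 88.4, gave 1.09, or 0.41 without KCASP1Tg 4. The sign without that array thus depended on the probe set.

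The Cd8a probe sets disagreed. The Cd8a probe set with the highest mean signal had signals of 154, 150, 208 and 288 on WT 1 to WT 4, and 157, 184 and 206 as the lowest, median and highest on the KCASP1Tg arrays. Its genotypes overlapped, with WT 4 the highest array, and its log2 fold change was -0.11 (SE 0.18, adjusted p = 0.958 from limma), or -0.15 without KCASP1Tg 4. The other 4 Cd8a probe sets were highest on KCASP1Tg 4, at signals of 555, 99.5, 591 and 858. Their log2 fold changes were 1.05, -1.09, 0.65 and 1.42, and 0.33, -1.9, 0.0 and 0.85 without KCASP1Tg 4. Zap70, the kinase that binds the activated T cell receptor, showed the same kind of disagreement. The Zap70 probe set used had signals of 285 to 1292 on the WT arrays and of 531 to 828 on the KCASP1Tg arrays, a log2 fold change of 0.21 (adjusted p = 0.958 from limma), or 0.28 without KCASP1Tg 4. The other 2 Zap70 probe sets were highest on KCASP1Tg 4, with signals of 474 and 280 against at most 84.0 and 97.9 elsewhere and log2 fold changes of 0.75 and 0.89, or 0.18 and 0.58 without KCASP1Tg 4.

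The remaining T cell genes were all highest on KCASP1Tg 4. Il7r, the receptor for the survival cytokine interleukin-7, had a signal of 2652 there and at most 221 on the other arrays, a log2 fold change of 1.25 (adjusted p = 0.790 from limma). The adhesion receptor Cd2 had 1226 against at most 166, a log2 fold change of 1.05 (adjusted p = 0.768 from limma). Cd5, an inhibitory receptor, Cd28, a costimulatory receptor, and Lef1, a transcription factor of naive T cells, were not tested. Their signals on KCASP1Tg 4 were 581, 570 and 545, and their log2 fold changes were 1.25, 0.94 and 0.49. Without KCASP1Tg 4 the log2 fold changes of Il7r, Cd2, Cd5, Cd28 and Lef1 were 0.52, 0.48, 0.77, 0.40 and -0.04, so Lef1 was not higher in the rest of the KCASP1Tg arrays.

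The shared leukocyte genes were above 100 on nearly all arrays. Coro1a, an actin-binding protein needed for T cell survival, had signals of 1086, 1181, 1028 and 422 on WT 1 to WT 4, and 1075, 1630 and 9880 as the lowest, median and highest on the KCASP1Tg arrays. WT 4 was low and KCASP1Tg 4 high, and only KCASP1Tg 5 lay within the WT range. Coro1a was higher in KCASP1Tg by 1.20 on the log2 scale (SE 0.58, adjusted p = 0.665 from limma), and by 0.73 without KCASP1Tg 4.

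Rac2, a GTPase of blood cells, had signals of 368, 270, 168 and 221 on WT 1 to WT 4, and 355, 515 and 3682 as the lowest, median and highest on the KCASP1Tg arrays. Only KCASP1Tg 5 fell below the highest WT array, WT 1. Rac2 was higher in KCASP1Tg by 1.48 on the log2 scale (95% interval 0.17 to 2.79, SE 0.59, adjusted p = 0.559 from limma, exact Mann-Whitney p = 0.019 before adjustment). Without KCASP1Tg 4 it was 1.0 (adjusted p = 0.334 from limma). Ptprcap, which binds the phosphatase CD45, had signals of 230, 105, 63.3 and 130 on the WT arrays, and 96.7, 222 and 1484 on the KCASP1Tg arrays. These overlapped widely, and the log2 fold change was 1.06 (SE 0.70, adjusted p = 0.781 from limma), or 0.55 without KCASP1Tg 4.

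**Figure D3:**
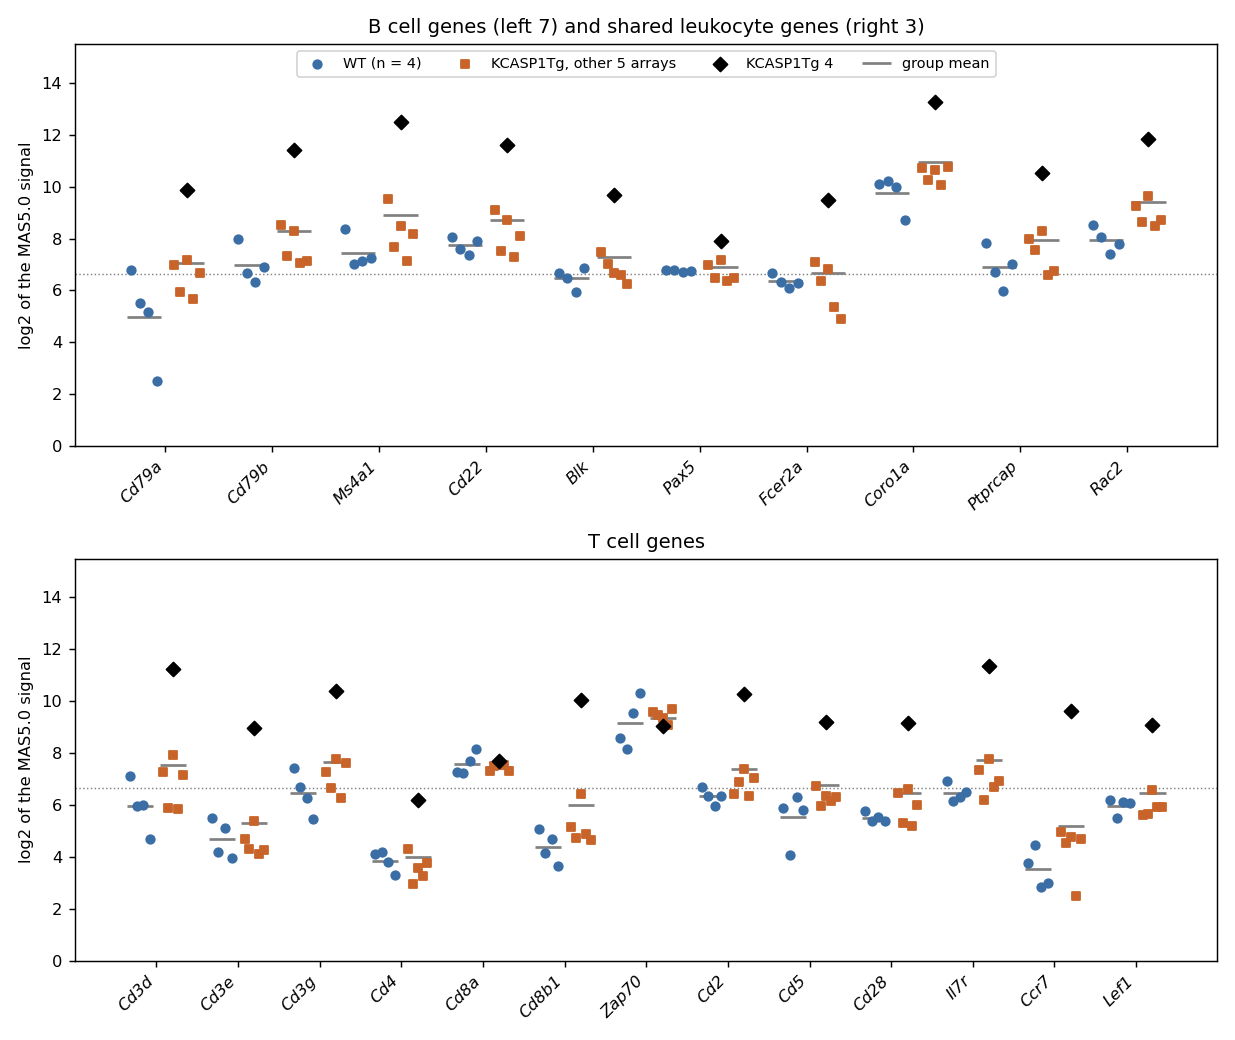
Log2 of the MAS5.0 signal of the B cell, shared leukocyte and T cell genes on each array, with the same symbols as for the node genes: circles WT, squares 5 KCASP1Tg arrays, diamonds KCASP1Tg 4, grey lines group means and the dotted line a signal of 100. The diamond is the highest point for all genes but Cd8a and Zap70, for which the probe set used was highest on WT 4, while circles and squares overlap for every gene shown.

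Most of the genes had their high signals on the same arrays. The mean log2 signal of the 31 genes was 6.70, 6.03, 6.06 and 5.93 on WT 1 to WT 4, and 7.23, 6.32, 7.41, 10.04, 6.35 and 6.67 on KCASP1Tg 1 to KCASP1Tg 6. KCASP1Tg 4 was highest, KCASP1Tg 3 and KCASP1Tg 1 followed, and WT 1 stood above KCASP1Tg 2, KCASP1Tg 5 and KCASP1Tg 6. KCASP1Tg 3 had the second highest signal for 14 genes and KCASP1Tg 1 for 10, and WT 1 was the highest WT array for 20. The KCASP1Tg 4 signal was at least 2 times that of any other array for 27 of the 31 genes, against 3.03% of all probe sets, and at least 5 times for 19 genes, against 0.597%. A signal of at least 100 was found for 30 of the 31 genes on KCASP1Tg 4, for 10 to 21 on the other KCASP1Tg arrays and for 8 to 18 on the WT arrays. For 7 genes KCASP1Tg 4 was the only array at 100 or more.

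**Figure D4:**
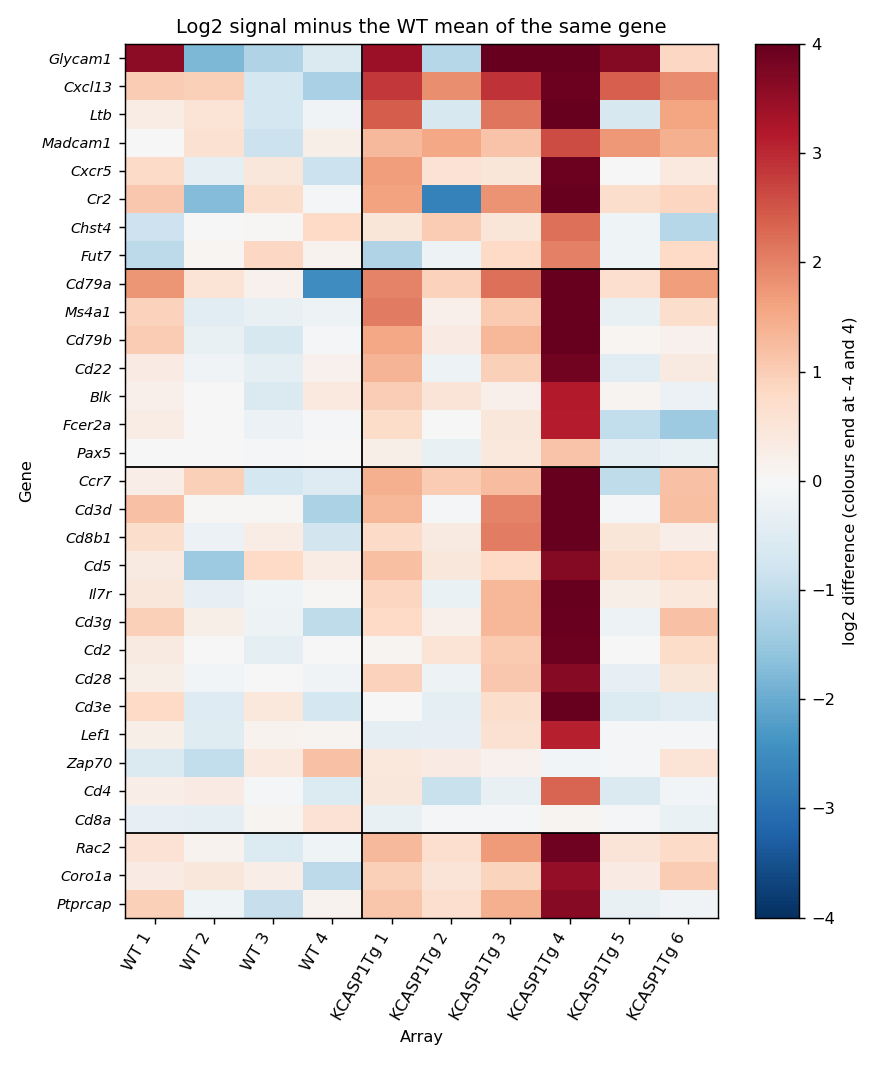
Log2 signal of each of the 31 genes on each of the 10 arrays minus the WT mean of that gene, with red above and blue below the WT mean and colours ending at -4 and 4. Horizontal lines part the node, B cell, T cell and shared leukocyte genes, and the vertical line parts WT from KCASP1Tg. The KCASP1Tg 4 column is clearly red in all rows but those of Zap70 and Cd8a, and Cxcl13 and Madcam1 are red in all 6 KCASP1Tg columns.

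KCASP1Tg 4 was set against the other KCASP1Tg arrays for each gene group. The median over genes of the KCASP1Tg 4 signal over the median of the other KCASP1Tg arrays was 7.07 for the node genes, 9.10 for the B cell genes, 9.03 for the T cell genes and 7.90 for the shared leukocyte genes, beside 1.04 over all probe sets. The mean log2 signal of the node genes without KCASP1Tg 4 was 5.39 to 6.22 on the WT arrays and 5.64 to 7.56 on the KCASP1Tg arrays. That of the T cell genes was 5.57 to 6.18 and 5.68 to 6.72. The WT and KCASP1Tg ranges thus overlapped in both groups.

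Other genes of the same pathways were examined as lists, and 0 of their genes were called in either direction. At a p under 0.05 before adjustment, 1 of 7 tested genes of the T cell receptor list and 3 of 15 of the B cell receptor list were higher. So were 1 of 6 lymphotoxin genes and 1 of 12 node stroma genes. In these lists 0 genes were lower, and 4.52% of all probe sets tested were higher. Of 24 further genes of T cell receptor signalling and T cell identity, 22 were measured and 7 tested, with a median log2 fold change of 0.86, or 0.37 without KCASP1Tg 4. The 3 with the smallest p were the receptor chain Cd247 at 1.18 (adjusted p = 0.565 from limma), the phosphatase Ptpn22 at 1.44 (adjusted p = 0.665 from limma) and the adaptor Lat at 1.05 (adjusted p = 0.704 from limma). Without KCASP1Tg 4 these were 0.84, 0.84 and 0.60. Of 22 further genes of B cell receptor signalling and B cell identity, 21 were measured and 15 tested, with a median of 0.90, or 0.33 without KCASP1Tg 4. Here the smallest p values were those of Pou2af1, a coactivator that works with octamer-binding factors, at 2.37 (adjusted p = 0.505 from limma), and of the kinases Btk at 1.86 (adjusted p = 0.568 from limma) and Syk at 1.08 (adjusted p = 0.620 from limma). Without KCASP1Tg 4 these were 1.66, 1.43 and 0.66. Pou2af1 had signals of 37.6 to 123 on the WT arrays, 132 to 400 on 5 KCASP1Tg arrays and 3782 on KCASP1Tg 4. The genotypes did not overlap for Pou2af1, Btk and Syk among the 21 genes of the B cell receptor list. The same held for Ptpn22 among the 22 of the T cell receptor list. KCASP1Tg was higher in each, as for 1.45% of all probe sets. Which cells these signals came from was not tested.

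For lymphotoxin signalling and node stroma the medians lay nearer to 0. Of 12 genes of the lymphotoxin pathway, 10 were measured and 6 tested, with a median log2 fold change of 0.42, or 0.13 without KCASP1Tg 4. The kinase Map3k14, which starts the noncanonical NF-kappa-B pathway, had 0.49 (adjusted p = 0.494 from limma), the ubiquitin ligase Birc3 0.67 (adjusted p = 0.747 from limma) and the NF-kappa-B subunit Relb 0.35 (adjusted p = 0.880 from limma). Without KCASP1Tg 4 these were 0.41, 0.33 and 0.10. Of 17 further genes of node venules and stroma, 13 were measured and 12 tested, with a median of 0.38, or 0.19 without KCASP1Tg 4. The adhesion molecule Icam1 had 0.63 (adjusted p = 0.592 from limma), the chemokine Cxcl12 0.58 (adjusted p = 0.650 from limma) and the chemokine receptor Ackr1 of venules 0.59 (adjusted p = 0.666 from limma). Without KCASP1Tg 4 these were 0.41, 0.38 and 0.52. Icam1 signals were 480 to 606 on the WT arrays and 652 to 1845 on the KCASP1Tg arrays, and it was the only gene without overlap among the 13 of its list and the 10 of the lymphotoxin list. Of all probe sets, 1.45% had KCASP1Tg signals wholly above the WT signals.

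Markers of other cell types also stood apart on KCASP1Tg 4, and their part in the results above was not tested. All 9 measured neutrophil markers were highest there, with a mean log2 signal of 11.64, where the other KCASP1Tg arrays had 8.38 to 9.20 and the WT arrays 5.62 to 5.74. S100a8 and S100a9, which form calprotectin, were the neutrophil markers called with all arrays, with log2 fold changes of 5.22 and 5.34 (adjusted p = 0.00633 from limma for each), and 4.78 and 4.89 without KCASP1Tg 4. Without that array Camp, Ngp, Mmp8 and Lcn2 passed too (adjusted p = 0.0225, 0.00558, 0.00804 and 0.0159 from limma). Of all probe sets tested, 0.0686% were called higher with all arrays and 0.236% without KCASP1Tg 4. For 7 of the 9 neutrophil markers all KCASP1Tg signals lay above all WT signals, beside 2 of the 31 lymph node and lymphocyte genes and 1.45% of all probe sets, while Csf3r and Cxcr2 overlapped through KCASP1Tg 2. Of the 9 measured natural killer and cytotoxic markers 7 were highest on KCASP1Tg 4, of the 8 plasma cell markers 6, of the 10 macrophage markers 8, of the 5 lymphatic endothelial markers 4 and of the 5 germinal centre markers 3. The mean log2 signals on KCASP1Tg 4 were 8.69 for the cytotoxic markers, 10.78 for plasma cells, 11.34 for macrophages, 10.1 for lymphatic endothelium and 7.39 for germinal centres. On the other KCASP1Tg arrays they ran from 5.92 to 7.04, 8.89 to 9.61, 10.04 to 11.03, 8.99 to 9.59 and 5.70 to 6.88, and on the WT arrays from 5.39 to 6.45, 8.40 to 8.92, 9.74 to 10.16, 8.68 to 9.44 and 5.70 to 6.36.

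Most markers of the vessel wall and its fat were lower on KCASP1Tg 4 than the median of the other KCASP1Tg arrays, in number 7 of 8 for smooth muscle (all but Des), 7 of 8 for endothelium (all but Erg) and 6 of 6 for adipocytes. None of the 8 smooth muscle, 8 endothelial, 6 adipocyte, 6 heart muscle or 5 liver markers was highest there. The ratio of the KCASP1Tg 4 signal to the median of the other KCASP1Tg arrays had a median of 0.404 for smooth muscle, 0.774 for endothelium and 0.675 for adipocytes. The endothelial mean log2 signal was 10.13 on KCASP1Tg 4, 10.48 to 10.60 on the other KCASP1Tg arrays and 10.44 to 10.56 on the WT arrays, and the adipocyte mean was 12.60, 12.77 to 13.64 and 12.78 to 13.19. Thymus markers were low on all arrays, with means of 3.85 on KCASP1Tg 4, 3.35 to 4.36 on the other KCASP1Tg arrays and 3.09 to 3.66 on the WT arrays, and Rag1 and Rag2, the recombinase genes of developing lymphocytes, were at signals of at most 13.3 and 21.2. Among the WT arrays, WT 1 had the highest means both of the lymph node and lymphocyte genes and of the liver markers, and the part of the latter was not tested. Without WT 1 and WT 3 the median log2 fold change of the 31 genes was 1.38, and without WT 4, KCASP1Tg 1 and KCASP1Tg 2, the arrays with heart muscle transcripts, it was 1.24, with 0 genes called in both cases.

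**Figure D5:**
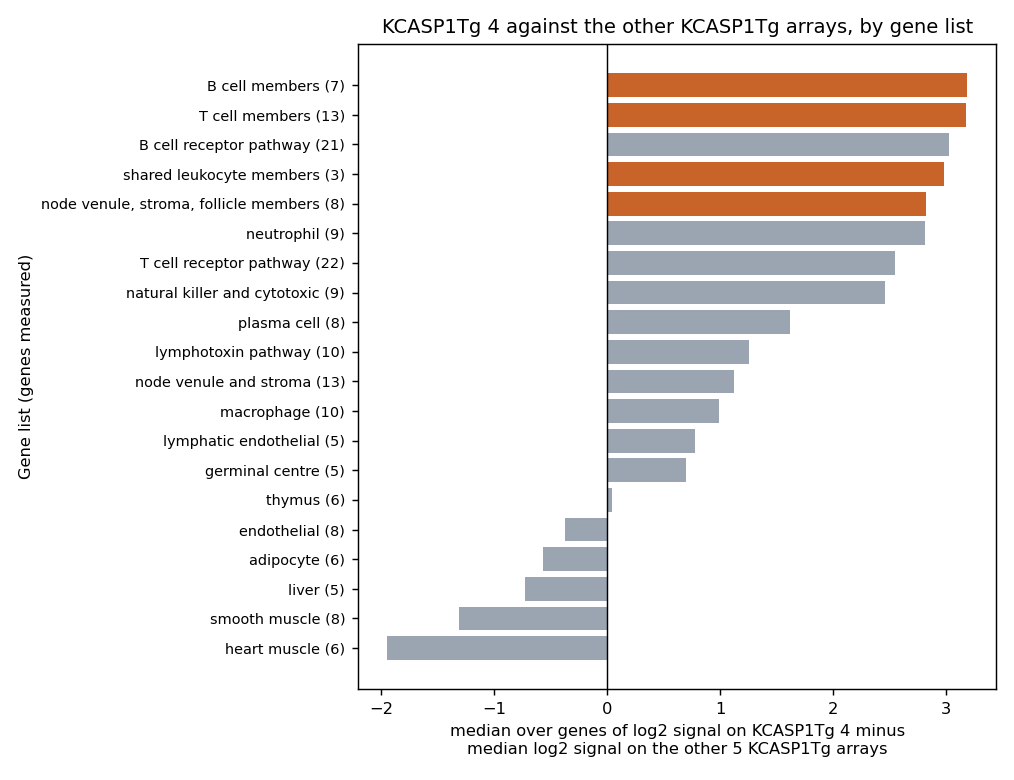
Median over the measured genes of each list (their number in brackets) of the log2 signal on KCASP1Tg 4 minus the median log2 signal on the other 5 KCASP1Tg arrays. Orange bars are the lymph node and lymphocyte genes and grey bars the other lists. The orange bars run from 2.82 to 3.19. Several grey bars are of similar size, at 3.03 for the B cell receptor list, 2.81 for neutrophils, 2.55 for the T cell receptor list and 2.46 for cytotoxic markers. The thymus bar is near 0, and the smooth muscle and heart muscle bars lie below 0 at -1.31 and -1.95.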

How the data were processed

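Total RNA from 10 aortas was labelled and hybridised to GeneChip Mouse Genome 430 2.0 arrays. The sample labels and the methods give different amounts of RNA for the labelling. The deposited values are MAS5.0 signal intensities per probe set on a linear scale, which the authors scaled to a trimmed mean of 500 on each array. No scan date or batch is given in the sources used here.

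Of 45101 probe sets, 64 controls were left out. Genes were named from the platform annotation, in which 34945 probe sets had 1 symbol (34741 matched to a current gene table), 932 several and 9160 none. Each signal was floored at 1 before the log2. The 26242 probe sets that reached a signal of 100 on 4 or more arrays were compared with limma 3.58.1 (R 4.3.3), genotype being the only term, with Benjamini-Hochberg adjustment over all of them and a call at an adjusted p under 0.05. The two-sided exact Mann-Whitney test named in the methods was computed beside it (scipy 1.17.1, Python 3.11.15). The labels name each array as a separate mouse, so p-values measure the spread between these samples. The steps were tested on simulated data. Promoter windows came from RefSeq (GRCm38.p6) and figures from matplotlib 3.10.9.

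The members and lists were chosen with earlier results of these data known. Values by array were given for the 3 genes with the highest and the 2 with the lowest log2 fold change of the node, B cell and T cell groups and for the 3 shared leukocyte genes, and for each pathway list the 3 genes with the smallest p, as none was called. Madcam1, Pou2af1 and Icam1 were added for their signals after these were seen. Alternatives covered the floor, a pseudocount, the filter, the normalization, array weights, an intensity trend, the threshold, the probe sets of a gene, a replicate block, subsets of arrays and each array left out. Those without the arrays with liver or heart muscle transcripts were chosen after seeing the data.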

Additional observations from a re-analysis of the deposited data

Results flagged for a closer look

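On the log2 scale, the gap of the highest or lowest array to its neighbour was divided by the range of its group and set against Dixon's critical value (0.829 for 4 arrays and 0.625 for 6). Of 62 groups looked at, 17 exceeded it, where the nominal rate is about 1 in 20, and the genes are not independent since they were measured on the same arrays. The share of all probe sets that exceed it is not given here. KCASP1Tg 4 was the highest array for 29 of the 31 genes and for 20.3% of all probe sets. Being highest is not the same measure as exceeding the critical value, so the count of 17 cannot be set beside these shares. In 14 of the 17, KCASP1Tg 4 was the highest KCASP1Tg array. Among B cell genes its ratio was 0.638 for Cd79a, 0.662 for Cd79b and 0.645 for Blk. Among T cell genes it was 0.742 for Cd3e, 0.632 for Cd3g, 0.67 for Cd8b1, 0.736 for Cd2, 0.762 for Cd5, 0.645 for Cd28, 0.693 for Il7r, 0.656 for Ccr7 and 0.722 for Lef1. Among the shared leukocyte genes it was 0.783 for Coro1a and 0.653 for Rac2. In the WT group, WT 1 was high for Ms4a1 (0.849), WT 2 low for Lef1 (0.832) and WT 4 low for Coro1a (0.865).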

How the results depend on the processing

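No gene was called lower under any setting tried, and with array weights in limma 1 gene, Cxcl13, was called higher (log2 fold change 2.32, adjusted p = 0.0368) in place of 0. The share of all probe sets called with array weights is not given here, so this call cannot be set beside it. The median log2 fold change of the 31 genes ran from 0.55 without KCASP1Tg 4 over 0.58 with array weights and 0.79 with a pseudocount of 50 to 1.53 with the replicate number as a block, so its size depended on KCASP1Tg 4. With the replicate block the log2 fold change of Cxcl13 was 2.87 (adjusted p = 0.798 from limma) and 0 genes were called. Arrays with the same number did not deviate together (correlations of 0.11, -0.31, -0.43 and -0.33). These values gave no sign that the numbers pair the mice, but so few correlations cannot exclude it. With array weights Pax5 was at -0.06, Fcer2a at -0.04 and, among genes not tested, Fut7 at -0.29, Cd4 at -0.26 and Cd3e at -0.24, all positive with equal weights. Without KCASP1Tg 4 the signs of Fcer2a (-0.25), Cd3e (-0.13), Cd4 (-0.28) and Lef1 (-0.04) changed too, and without WT 4 that of Cd4 (-0.03). These values are from the probe sets used. The second probe sets of Fcer2a, Cd4 and Pax5 were positive without KCASP1Tg 4, at 0.01, 0.41 and 0.05. Cd8a was at 0.12 with WT 1 to 3 and KCASP1Tg 1 to 5, and also without WT 4, KCASP1Tg 1 and KCASP1Tg 2. Leaving out 1 array at a time gave -0.12 to 0.61 for Zap70 (lowest without WT 2), -0.23 to 0.08 for Cd8a (highest without WT 4) and -0.07 to 0.24 for Pax5 (lowest without KCASP1Tg 4). The cause of these changes of sign was not tested, and none of these values passed the threshold. Low signals limit the genes under 100, where a pseudocount can change the size of a log2 difference. Madcam1 was at 1.62 with a floor of 1, at 1.59 with a floor of 16 and at 0.78 with a pseudocount of 50. For Cd8a the choice of probe set mattered, with -0.11 for the probe set used and 0.39 as the mean of its probe sets.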

Other observations

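The plasma cell and cytotoxic lists, given above only in sum, were examined gene by gene after their values had been seen, and 0 of their genes passed the threshold. Of the 8 plasma cell genes, 4 had all KCASP1Tg signals above all WT signals (Jchain, Mzb1, Derl3 and Tnfrsf17), beside 1.45% of all probe sets. Jchain, the chain that joins IgA and IgM, had signals of 1373, 1262, 259 and 265 on WT 1 to WT 4, of 2383 to 5887 on 5 KCASP1Tg arrays and of 24796 on KCASP1Tg 4. The log2 fold change was 2.97 (adjusted p = 0.262 from limma), or 2.49 without KCASP1Tg 4 (adjusted p = 0.162 from limma). Mzb1 and Derl3, which act in the endoplasmic reticulum of antibody-secreting cells, had log2 fold changes of 2.19 and 1.35 (adjusted p = 0.496 and 0.405 from limma), or 1.56 and 1.08 without KCASP1Tg 4, and the survival receptor Tnfrsf17 had 0.98, or 0.72, and was not tested. The other plasma cell genes overlapped between the genotypes. The transcription factors Xbp1, Prdm1 and Irf4 had log2 fold changes of 0.21, -0.03 and -0.72, and Sdc1, a surface marker that epithelia also express, had -0.07. Irf4 signals were 476 to 2200 on the WT arrays, 360 to 871 on 5 KCASP1Tg arrays and 1007 on KCASP1Tg 4.

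Of the 9 cytotoxic genes, Nkg7 and Ccl5 did not overlap between the genotypes, with KCASP1Tg higher, as for 1.45% of all probe sets. Nkg7, a granule protein of natural killer and CD8 T cells, had signals of 67.4 to 98.1 on the WT arrays, of 108 to 226 on 5 KCASP1Tg arrays and of 1008 on KCASP1Tg 4, a log2 fold change of 1.53 (adjusted p = 0.454 from limma), or 1.11 without KCASP1Tg 4 (adjusted p = 0.108 from limma). The chemokine Ccl5 had 1.70 (adjusted p = 0.559 from limma), or 1.13 without KCASP1Tg 4. Gzmb, Gzma and Prf1, which encode the proteases and the pore protein of cytotoxic granules, had 1.35, 0.54 and -0.22, or 1.10, 0.11 and -0.28 without KCASP1Tg 4. The transcription factors Tbx21 and Eomes had 1.03 and 0.35, or 0.64 and -0.22, and the receptors Klrd1 and Ncr1 had 0.99 and -0.07, or 0.44 and -0.15. These last 4 genes were not tested.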
